A study of Gallus gallus with 8 samples.

Results

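The genes described here code for splicing factors and nuclear RNA-binding proteins of the hen. They are the genes whose symbol in the array annotation starts with SNRP, SF3A, SF3B, PRPF, LSM and a digit, SRSF, SFRS, HNRN or RBFOX. The rule found 64 of the 13007 genes that a probe set of the chicken array names alone, and each was read from its probe set with the highest mean over the 8 arrays. Of the 64, 56 passed the filter on low values, a log2 level of at least 4 on at least 2 arrays. Total RNA had been taken from samples given as F1 oocytes, collected 24 h before ovulation, and hybridised to 8 Affymetrix chicken arrays, 2 in each group. The DPF+ and DPF- groups come from lines under opposite selection whose fertility differs, and the HG+ and HG- groups from contrasting fertility inside 1 line. The labels do not say what was selected, or which sign stands for higher fertility. Housing was the same for all, at 20 °C with 14 h light, 10 h dark and feed at will. The labels give no age and call the arrays of a group biological replicates. They do not say whether an array holds 1 bird or a pool, so the p values measure the spread between these samples.

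Splicing removes introns from pre-mRNA in the spliceosome, a machine built from small nuclear ribonucleoproteins (snRNPs). Sm proteins form a ring on most of the spliceosomal RNAs and Lsm proteins a like ring on U6. The SF3A and SF3B complexes belong to the U2 snRNP and hold it at the branch point, and several PRPF proteins build and drive the U4/U6.U5 particle. SR proteins mostly promote the use of the exons they bind, hnRNP proteins often oppose them, and RBFOX proteins set tissue-specific exons. Growing oocytes store maternal mRNA, and in many animals transcription stops as the egg matures, so that the processing of RNA made earlier serves the early embryo.

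The labelled cell type was set against its markers. All 11 granulosa markers on the array passed the filter, with the ovarian transcription factor FOXL2 between 10.85 and 11.19. Of 10 oocyte and germ cell markers 5 passed, with the germ cell gene DAZL between 6.68 and 8.15, while DDX4, GDF9 and BMP15 were below 4 on every array. The RNA thus held transcripts of granulosa as well as germ cell markers. In such RNA, fewer cells of a type and less RNA per cell cannot be told apart.

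Most of the splicing genes were above 4 on all 8 arrays. The 13 hnRNP genes all passed, with the highest means over the 8 arrays for HNRNPH1 (11.06) and HNRNPA1 (10.81) and the lowest for HNRNPLL (6.70). The group called Sm and Lsm here takes in all SNRP and LSM symbols, also the U1 protein SNRPC and the U2 subunit SNRPA1. Of its 22 genes 18 passed. LSM14A (9.20) and the U6 ring subunit LSM3 (9.08) were at the top and the Sm protein SNRPD2 (4.05) at the bottom. Of 7 SF3A and SF3B genes 6 passed, from SF3B4 (5.07) to SF3B1 (9.85) and SF3A1 (10.14). Of 9 PRPF genes 8 passed, from PRPF19 (4.72) to PRPF6 (9.06) and PRPF8 (10.24), the protein at the heart of the spliceosome. Of 11 SR genes 10 passed, from SRSF5 (6.38) to SRSF6 (10.54), with SRSF1 the highest. Of the 2 RBFOX genes only RBFOX2 passed, at 5.82. Each level belongs to its own probe set, so the order names genes and does not compare their RNA.

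The 8 genes that did not pass were SRSF4, SNRPF, SNRPB2, SF3B5, RBFOX1, PRPF4, LSM5 and LSM11. The highest value among them was 4.15, for LSM5 in DPF+ replicate 2. A low value need not mean little RNA, as probe sets of the same gene can differ widely. LSM3 had another probe set between 2.25 and 2.41, beside 8.88 to 9.28 for the one used. The annotation names SNRPGP15 and SNRPN have SNRPG and SNRPB among their synonyms in the reference gene table. Closely related pairs such as SRSF5 and SRSF5A, SRSF7 and SRSF7L, and HNRNPK and HNRNPKL may share signal between probe sets.

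Across the 8 arrays a typical gene moved little. The difference between its highest and lowest array had a median of 0.65 over the 56 genes, a log2 value, and exceeded 1 in 11 genes. The plot of levels relative to each gene's mean shows RBFOX2 as the gene that divides DPF from HG arrays most widely. DPF+ replicate 2 was the array that most often held an extreme value. It had the highest value of 24 genes and the lowest of 12, and DPF+ replicate 1 and DPF- replicate 2 each had the lowest of 16.

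**Figure D1:**
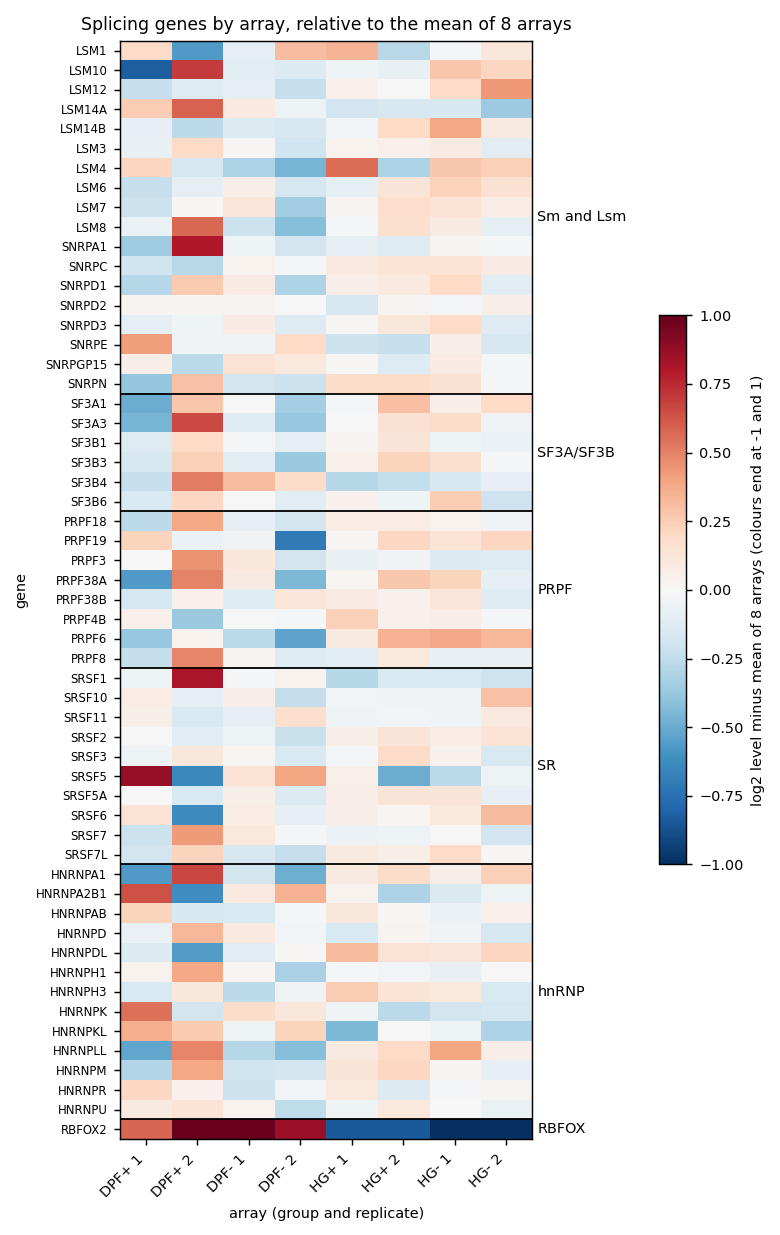
Log2 level of the 56 splicing genes (rows, grouped by role) on each of the 8 arrays (columns), as the difference from the gene's mean over 8 arrays. RBFOX2 is high on all 4 DPF arrays and low on all 4 HG arrays, and the 2 DPF+ columns differ in many rows.

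RBFOX2, which binds introns beside alternative exons, was higher in DPF than in HG hens. The DPF+ arrays measured 6.40 and 6.94, the DPF- arrays 7.37 and 6.68, the HG+ arrays 4.98 and 4.98, and the HG- arrays 4.57 and 4.64. The lowest DPF array lay above the highest HG array. The means were 6.85 ± 0.41 (SD, n = 4) and 4.79 ± 0.22, a log2 change of 2.06 (SE 0.20, 95% interval 1.58 to 2.53, limma adjusted p = 0.00287), or 4.16-fold. Among the 7034 genes tested it had the 5th largest rise. Its call held in all 20 alternative settings run, the omission of each array included, with adjusted p from 0.000735 to 0.0280 and changes from 1.88 to 2.23. The other 2 probe sets of RBFOX2 stayed under 2.5 on all arrays and do not bear on it.

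DPF and HG hens differ in line, and the sources used here do not give whether their arrays were run together, so that line and any batch cannot be told apart. Among the deposited values, 6 probe sets, none annotated to a splicing gene, are blank on all 4 DPF arrays alone and 2 on all 4 HG arrays alone. Other measures moved with the same division. The 3' minus 5' difference of control transcripts, a measure of RNA integrity, was 1.64 ± 0.25 (SD, n = 4) in DPF and 1.12 ± 0.06 in HG (p = 0.0286 in a two-sided exact permutation test, the lowest possible with 4 arrays a side). COL1A2, a fibrillar collagen chain and the only theca and stroma marker of 7 to pass the filter, was at 4.08 to 5.97 in DPF and at 8.01 to 8.93 in HG, and CYP17A1, COL1A1 and DCN were below 4 throughout. The summed theca and stroma level adds to COL1A2 only markers below 4 on every array. It ran from 5.87 to 6.72 in DPF and from 8.21 to 9.04 in HG.

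Of the 11 granulosa markers 1 was called for DPF against HG, the transcription factor GATA4, which was lower in DPF (-0.64, limma adjusted p = 0.0425). INHBA, an activin subunit, had -1.23 (adjusted p = 0.0757) and STAR, which carries cholesterol into mitochondria, -1.04 (adjusted p = 0.0781). The summed granulosa level, in which the bright ZP3 weighs most, overlapped, at 14.50 to 15.04 in DPF and 14.86 to 15.04 in HG, as did the oocyte level, at 7.98 to 8.94 and 8.47 to 8.67. The red blood cell level, which rests on ALAS2 with HBAA, HBAD and HBBR below 4, was 7.94 to 8.56 in DPF and 8.73 to 9.07 in HG. The leukocyte level, which rests on CD74 with PTPRC and CD3E below 4, was 7.78 to 8.89 and 8.78 to 9.30. ALAS2 was lower in DPF (-0.68, adjusted p = 0.0262). The part of these measures in the values of RBFOX2 and the genes below was not tested.

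PRPF6, which bridges U5 with the U4 and U6 particles, was the other gene past the threshold. The DPF+ arrays measured 8.68 and 9.10, the DPF- arrays 8.79 and 8.53, the HG+ arrays 9.15 and 9.41, and the HG- arrays 9.44 and 9.39. All DPF arrays lay below all HG arrays, but DPF+ replicate 2 and HG+ replicate 1 nearly met. The change was -0.57 (SE 0.15, 95% interval -0.93 to -0.22, limma adjusted p = 0.0489).

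A second probe set of PRPF6 was lower in DPF as well (log2 change -0.81, adjusted p = 0.0270). The call of the first was weak. It was lost in 13 of 20 settings, among them the omission of either DPF- array (adjusted p = 0.0755 without replicate 1 and 0.159 without replicate 2), either HG+ array (0.121 and 0.211) or either HG- array (0.162 and 0.169). The change stayed between -0.69 and -0.47.

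**Figure D2:**
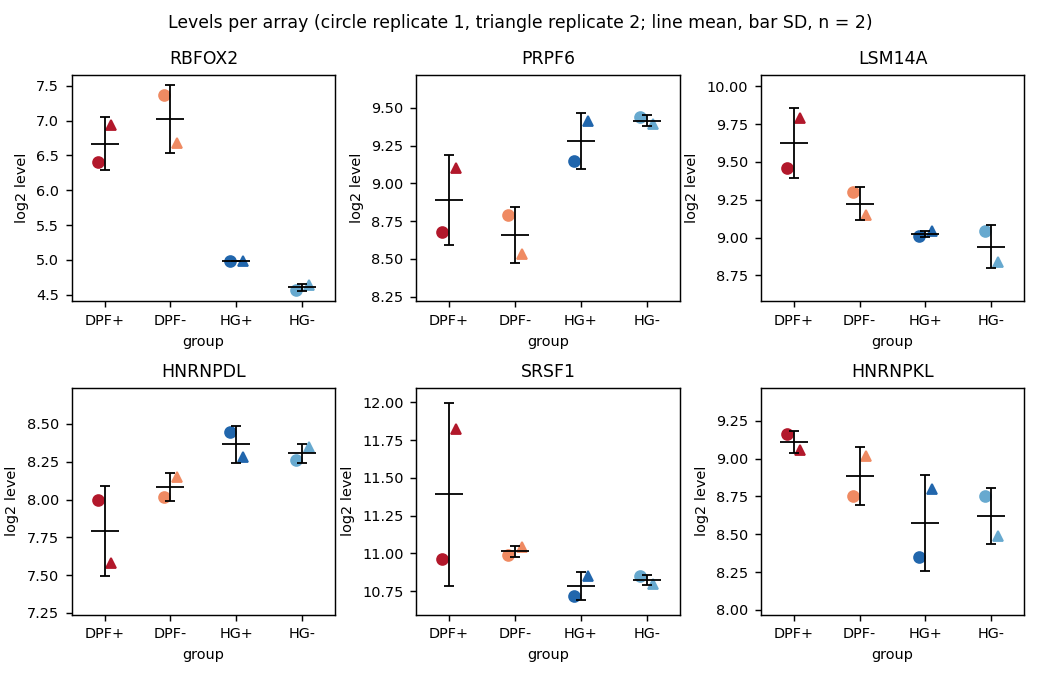
Log2 level per array (vertical axes, each with its own range) by group for 6 genes, with circles for replicate 1, triangles for replicate 2, and the mean with its SD (n = 2). RBFOX2 separates DPF from HG by 2.06, and the 5 other genes differ by 0.57 or less.

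These were 2 of 56 splicing genes, 3.57%, against 8.3% of all genes tested and 12.5% of all probe sets. The rise of RBFOX2 was 1 of 56 against 3.16% of genes, and the fall of PRPF6 was 1 of 56 against 5.15%. At an unadjusted p under 0.05 there were 6, against 24.1% of genes. The arrays of DPF and HG did not overlap in 9 genes, against 20.7%. The median change was -0.08 over the 56 genes (20 positive, 36 negative) and -0.06 over all genes.

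The count turned on single arrays. Without DPF+ replicate 1 it was 8, without DPF+ replicate 2 it was 14, and without any of the 6 other arrays RBFOX2 alone was called. Leaving out DPF+ replicate 1 or 2 raised the share of splicing genes called to 14.3% and 25% and that of all genes to 16.4% and 34.1%. Leaving out any other array lowered that of all genes, to between 0.697% and 5.35%. The array left alone in its group is then assumed to vary like the others.

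Among the Sm and Lsm proteins, LSM14A, a P-body protein that represses translation in frog oocytes, came next. The DPF+ arrays measured 9.46 and 9.79, the DPF- arrays 9.30 and 9.15, the HG+ arrays 9.01 and 9.04, and the HG- arrays 9.04 and 8.84. No DPF array was as low as an HG array, but the change of 0.44 (SE 0.14, limma adjusted p = 0.0725) did not pass. It did in 4 of the 20 alternative settings, without DPF+ replicate 1 (adjusted p = 0.0186), without DPF+ replicate 2 (0.0376), with median centring (0.0421) and with crossed replicate numbers as a block (0.0337). Of its 4 other tested probe sets 2 had the opposite sign. LSM12 (-0.34, adjusted p = 0.154), LSM14B (-0.32, adjusted p = 0.192) and the U1 protein SNRPC (-0.23, adjusted p = 0.240) had lower values in DPF without overlap. The other tested probe set of LSM12 had the opposite sign (0.0975).

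For SNRPC a second probe set passed, at 6.30, 6.06, 6.39 and 6.75 in the DPF arrays and 6.93, 7.27, 7.14 and 7.04 in the HG arrays (change -0.72, adjusted p = 0.0295). All 18 genes of the Sm and Lsm group had a median of -0.11, with 5 positive and 13 negative, beside -0.06 over all genes. Limma called 0 of the 18, against 8.3% of all genes, and 2 had an unadjusted p under 0.05, against 24.1%.

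Of the 6 SF3A and SF3B genes 0 were called, against 8.3% of all genes, and 0 had an unadjusted p under 0.05, against 24.1%. SF3B4, a branch point protein, had a change of 0.39 (adjusted p = 0.213), with 4.84, 5.58, 5.38 and 5.25 in the DPF arrays against 4.78, 4.82, 4.91 and 4.99 in the HG arrays, so that DPF+ replicate 1 lay among the HG arrays. SRSF1, a prototype of the SR proteins, had a change of 0.40 (adjusted p = 0.201). The DPF+ arrays stood at 10.96 and 11.82, the DPF- arrays at 10.99 and 11.04, the HG+ arrays at 10.72 and 10.85, and the HG- arrays at 10.85 and 10.80. The groups did not overlap, and 1 array, DPF+ replicate 2, was far above the rest.

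HNRNPDL, a relative of the mRNA-binding hnRNP D, was at 8.00, 7.58, 8.02 and 8.15 in the DPF arrays and 8.45, 8.28, 8.26 and 8.35 in the HG arrays (-0.40, adjusted p = 0.118). HNRNPKL had a change of 0.40 (adjusted p = 0.137), and its 3 other tested probe sets had the same sign. The reference gene table places it on the W chromosome, which only females carry, and HNRNPK on the Z. HNRNPK was at 7.72, 6.98, 7.35 and 7.28 in the DPF arrays and at 7.13, 6.90, 6.98 and 7.0 in the HG arrays (0.33, adjusted p = 0.285).

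**Figure D3:**
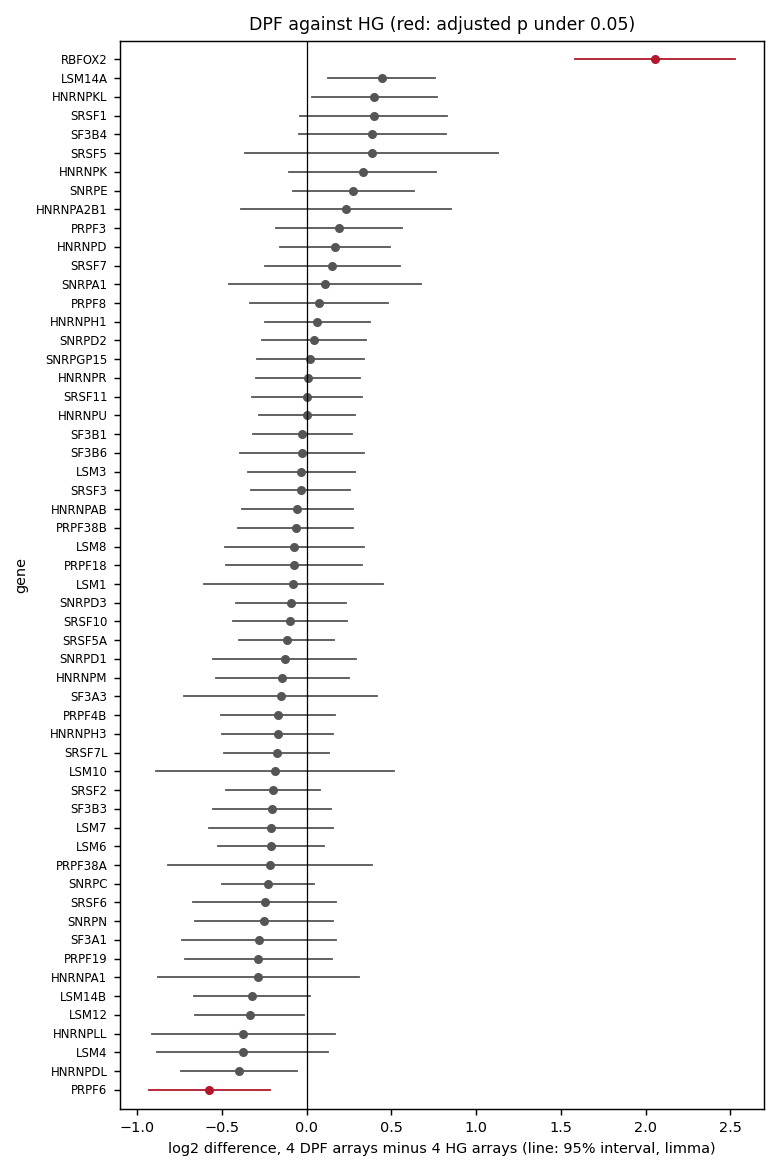
Log2 difference between the 4 DPF and the 4 HG arrays (horizontal axis, positive when DPF is higher) for the 56 splicing genes, with the limma 95% interval as a line. RBFOX2 at 2.06 and PRPF6 at -0.57 passed the threshold.

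Several genes had a called probe set other than the one used for them. Over all 106 tested probe sets of the splicing genes 10 passed for DPF against HG, 3 higher and 7 lower, or 9.43% against 12.5% of all probe sets, and they belonged to 8 genes. SF3B3, a scaffold of the SF3B complex, had 2 of them. The first measured 4.59, 4.76, 5.38 and 5.05 in the DPF arrays and 6.31, 6.36, 6.13 and 6.20 in the HG arrays (-1.31, adjusted p = 0.00420), and the second changed by -0.85 (adjusted p = 0.0101). Both separate DPF from HG, but the brightest SF3B3 probe set changed by only -0.20 (adjusted p = 0.409).

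HNRNPA1, an abundant hnRNP that binds exonic silencers, had a probe set with 9.51, 8.75, 8.77 and 9.35 in the DPF arrays and 7.70, 7.39, 7.87 and 8.07 in the HG arrays (1.34, adjusted p = 0.0120). Its brightest probe set had -0.29 (adjusted p = 0.496). Of the rest, HNRNPD had a probe set at 0.80 (adjusted p = 0.0336), SRSF3 at -0.62 (0.0439) and SRSF5A at -0.67 (0.0252), each beside a brighter one without a call. Which transcripts each probe set reads was not tested.

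**Figure D4:**
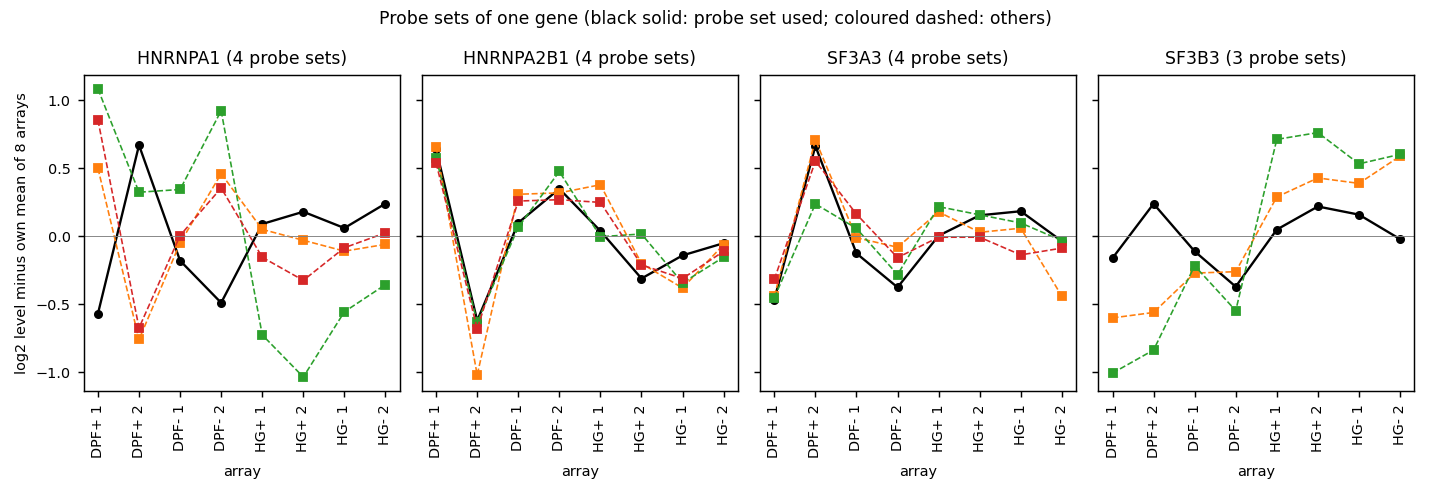
Log2 level of each tested probe set of HNRNPA1, HNRNPA2B1, SF3A3 and SF3B3 on the 8 arrays, as the difference from that probe set's mean, with the brightest probe set in black. Between the DPF+ arrays the probe sets of HNRNPA2B1 move together, as do those of SF3A3. The brightest of HNRNPA1 runs opposite to its 3 others there.

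The contrast of DPF+ with DPF- asks about fertility across the selected lines. In it fertility, the selected trait and line cannot be told apart. Of the 56 splicing genes 0 passed limma's 5% threshold, against 0% of all genes, and 0 had an unadjusted p under 0.05, against 4.86%. The smallest adjusted p was 0.814. The arrays did not overlap in 10 genes, against 20.5% of all genes. The median change was 0.10, with 39 positive and 17 negative, beside 0.05 over all genes. The 95% intervals of single genes had half-widths from 0.39 to 1.06.

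LSM8, the subunit that makes the Lsm ring nuclear, had the smallest p. It measured 8.31 and 8.95 in DPF+ against 8.16 and 7.95 in DPF-, with no overlap, a change of 0.58 (SE 0.25, 95% interval -0.0026 to 1.15). The HG arrays, at 8.37, 8.54, 8.47 and 8.28, were all above DPF-, and they overlapped DPF+. LSM14A followed with a change of 0.40 (SE 0.19), but 2 of its 4 other tested probe sets had the opposite sign. SNRPC had the lowest p among negative changes, at 8.73 and 8.65 in DPF+ and 8.97 and 8.92 in DPF- (-0.26, SE 0.17).

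The next positive changes by p were HNRNPH1, a regulator that binds G-rich RNA (0.37), PRPF19, the ubiquitin ligase of the spliceosome (0.46), and SRSF1 (0.38). The next negative ones were HNRNPDL (-0.30), RBFOX2 (-0.36), SNRPGP15 (-0.23) and SRSF6 (-0.24). LSM4 (0.41) and other positive changes not named here had a smaller p than RBFOX2. By role the median change was 0.04 for Sm and Lsm genes, 0.09 for SF3A and SF3B genes and 0.19 for PRPF genes. It was 0.07 for SR genes and 0.23 for hnRNP genes. Of 13 hnRNP genes 11 were positive, beside 3981 of all 7034 genes tested. No test was run on these medians. Of the 30 splicing genes with another tested probe set, 14 had a probe set of opposite sign, among them LSM14A and SRSF6. Of the positive hnRNP genes, HNRNPA1, HNRNPD, HNRNPLL, HNRNPM and HNRNPU were also among the 14.

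Single arrays moved these values. Without DPF+ replicate 1, limma called 7 splicing genes, 12.5% against 8.96% of all genes. The remaining DPF+ array had then no replicate, and its spread was assumed from the other groups. The 7 were HNRNPA1 (1.01), SNRPA1 (0.92), SF3A3 (0.92), LSM8 (0.90), LSM10 (0.82), SRSF1 (0.81) and HNRNPA2B1 (-0.85). Of these 7, 6 had the opposite sign without DPF+ replicate 2, namely HNRNPA1 (-0.24), SNRPA1 (-0.24), SF3A3 (-0.22), LSM10 (-0.70), SRSF1 (-0.06) and HNRNPA2B1 (0.42). LSM8 kept its sign (0.26), and SRSF6 turned to 0.15.

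Leaving out a DPF- array moved values too. RBFOX2 went from -0.36 to -0.01 without DPF- replicate 1, and PRPF19 from 0.46 to 0.12 without DPF- replicate 2. The median over the 56 genes was 0.25 and 0.005 without DPF+ replicate 1 and 2, and 0.155 and 0.045 without DPF- replicate 1 and 2. The 3' minus 5' difference was 1.82 and 1.86 in DPF+ and 1.54 and 1.33 in DPF-.

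The contrast of HG+ with HG- asks about fertility inside 1 line. Again 0 of 56 splicing genes passed in limma, against 0% of all genes, and 0 had an unadjusted p under 0.05, against 0.27%. The adjusted p was 1 for all 56. The fit shares the variance of a gene over all groups, so these p values also carry the spread within DPF. The arrays did not overlap in 14 genes, 7 higher and 7 lower, against 24.6% of all genes. The median change was 0.01, beside -0.01 over all genes, and the changes ran from -0.31 to 0.38.

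RBFOX2 was at 4.98 and 4.98 in HG+ and 4.57 and 4.64 in HG-, a change of 0.38 (SE 0.29, 95% interval -0.29 to 1.04). This SE, shared over all groups, is the same as for DPF+ against DPF-. The SD of RBFOX2 was 0.38 in DPF+ and 0.49 in DPF-, but 0 in HG+ and 0.05 in HG-. LSM12 was at 5.23 and 5.17 in HG+ and 5.37 and 5.61 in HG-, a change of -0.29 (SE 0.20). In both genes the arrays did not overlap, and neither passed. The others with the smallest p were HNRNPH3 (0.22), HNRNPM (0.20), SRSF3 (0.15) and SF3B1, the branch point subunit of SF3B (0.13). Among negative changes they were LSM6 (-0.17), the Sm protein SNRPE (-0.17), SRSF10 (-0.16) and LSM14B (-0.15). Of the 30 splicing genes with another tested probe set, 17 had a probe set of opposite sign, among them LSM12, SRSF3 and SRSF10.

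The difference between the fertility contrasts was tested as well, and 0 of 56 splicing genes passed in limma, against 0% of all genes. An unadjusted p under 0.05 was found in 0, against 2.29% of all genes. RBFOX2 had the smallest p, with a change of -0.36 in DPF and 0.38 in HG and a difference of -0.73 (SE 0.41, 95% interval -1.68 to 0.22, adjusted p = 0.999). Among positive differences the smallest p values belonged to LSM8 (0.50), PRPF19 (0.52), HNRNPH1 (0.36), the Lsm ring subunit LSM4 (0.55) and PRPF6 (0.37). After RBFOX2, the negative ones were HNRNPDL (-0.36), SNRPC (-0.27), the kinase PRPF4B (-0.26) and LSM1 of the mRNA decay ring (-0.28). Of the 30 splicing genes with another tested probe set, 14 had a probe set of opposite sign, among them PRPF6 and PRPF4B.

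The splicing genes varied most between the 2 arrays of DPF+. The absolute difference between replicates had a median of 0.40 there, against 0.18 for DPF-, 0.11 for HG+ and 0.13 for HG-. Over all genes the medians were 0.53, 0.27, 0.15 and 0.15. In DPF+ 22 of the 56 genes differed by more than 0.5, or 39.3% beside 51.7% of all genes, and 8 by more than 1.

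All 6 SF3A and SF3B genes were higher in DPF+ replicate 2 than in replicate 1, by a median of 0.57, as were 35 of the 56 splicing genes and 58.4% of all genes, whose median was 0.17. In DPF- all 6 were lower in replicate 2, with a median of -0.19, as were 43 of the 56 and 59.3% of all genes. The Sm proteins, which U2 shares with other particles, were mixed in DPF+. Their differences were 0.68 for SNRPN, 0.54 for SNRPD1, 0.05 for SNRPD3, 0 for SNRPD2, -0.33 for SNRPGP15 and -0.45 for SNRPE. SF3A3, which helps U2 at the branch point, stood at 7.69 and 8.82 in the DPF+ arrays, while the 6 others lay between 7.78 and 8.34. Its 3 other tested probe sets differed between the DPF+ arrays in the same direction, by 0.69 to 1.15. The other tested probe set of SF3A1 did so too (0.69), but that of SF3B1 went the opposite way (-0.23). Those of SF3B3 differed by only 0.04 and 0.17.

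SNRPA1, a subunit of U2, stood at 7.05 and 8.21 in DPF+ and between 7.22 and 7.43 elsewhere. LSM10, which serves histone mRNA processing in the U7 particle, had the largest difference, 4.20 against 5.72, with values between 4.89 and 5.30 on the other arrays. Of the PRPF genes PRPF38A had 5.81 and 6.87 in DPF+ and between 5.93 and 6.65 on the other arrays.

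Lower values in DPF+ replicate 2 were found in 20 of the 56 genes, among them 6 of 10 SR and 6 of 13 hnRNP genes. For SRSF5 the DPF+ arrays stood at 7.25 and 5.74, the DPF- arrays at 6.53 and 6.78, the HG+ arrays at 6.43 and 5.89, and the HG- arrays at 6.11 and 6.33. DPF+ replicate 1 was its highest array and DPF+ replicate 2 its lowest. HNRNPA2B1, which in mammals also takes part in mRNA transport, stood at 9.81 and 8.55 in the DPF+ arrays and between 8.86 and 9.52 on the others. All 4 of its tested probe sets were lower in DPF+ replicate 2, with differences from -1.68 to -1.21.

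HNRNPA1 gave no single answer. Its brightest probe set stood at 10.24 and 11.48 in DPF+, a difference of 1.24, while its 3 others were lower in replicate 2, with differences of -0.76, -1.26 and -1.53. SRSF6 (-0.78), LSM1 (-0.76) and HNRNPK (-0.74) were also lower in replicate 2.

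The replicate difference had the opposite sign in DPF+ and DPF- for 40 of the 56 genes, and the same sign in DPF+ and HG+ for 37. Across the 56 genes the replicate difference of DPF+ had Pearson's r = -0.43 with that of DPF- and r = 0.53 with that of HG+. Over all 12725 probe sets these values were -0.52 and 0.51. Genes are not independent replicates, and the values are a description. The levels come from a method that normalizes arrays to each other. The sources used here do not give which arrays were normalized together.

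**Figure D5:**
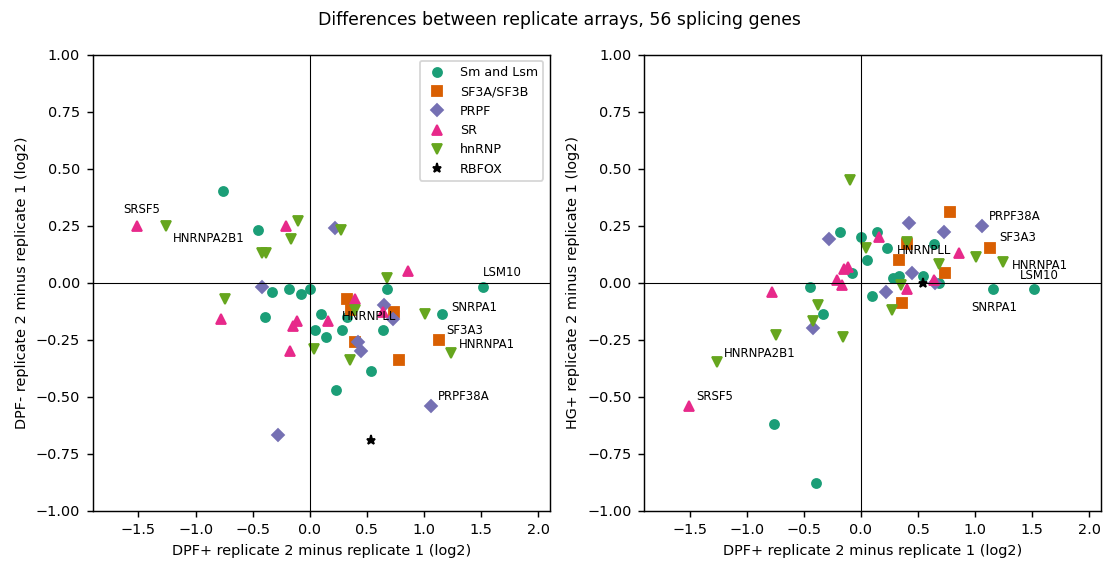
Replicate 2 minus replicate 1 (log2) of the 56 splicing genes in DPF+ (horizontal axes) against DPF- (left) and HG+ (right), with symbols for roles and names for the 8 genes that differ by more than 1 in DPF+. SRSF5 and HNRNPA2B1 lie at the negative end and LSM10, HNRNPA1, SNRPA1 and SF3A3 at the positive end.

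Summed cell marker levels and controls also differed between the DPF+ arrays. The summed granulosa level of 11 markers was 14.99 and 14.50 in the DPF+ arrays, and the summed level of 10 oocyte and germ cell markers was 8.10 and 8.94. DPF- had 14.82 and 15.04 for granulosa cells and 8.73 and 7.98 for oocytes. Single markers did not all follow the sums. AMH (6.53 and 6.60), FSHR (7.44 and 7.68) and GATA4 (4.24 and 4.66) were higher in DPF+ replicate 2. The other granulosa markers were lower there. DAZL (6.77 and 8.15) weighed most in the oocyte sum, while ZP2 (6.08 and 6.20) and H1FOO (4.71 and 4.69) barely differed. NPM2 (4.52 and 5.12) and MOS (4.21 and 5.35) were higher. The mean of bacterial hybridisation controls, which are added in fixed amount, was 9.78 and 8.93 in DPF+ and 9.22 and 9.64 in DPF-. The part of these measures in the replicate differences of the splicing genes was not tested.

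Other genes of the splicing pathway were read from a list of 121 names, of which 98 genes that are not among the 64 were on the array and 92 passed the filter. For DPF against HG 7 of them passed, 2 higher and 5 lower, or 7.61% beside 8.3% of all genes, with a median change of -0.01. The 5 lower include RALY, which passed the filter only through the HG arrays, so its call is not read as a result. SLU7, which acts in the last step of splicing, rose by 0.75 (SE 0.15, limma adjusted p = 0.0239), and TARDBP, the RNA-binding protein TDP-43, by 0.50 (SE 0.12, adjusted p = 0.0369). CASC3, a core protein of the exon junction complex, stood at 4.53, 4.38, 5.27 and 4.4 in the DPF arrays and at 6.0, 6.14, 5.81 and 6.44 in the HG arrays, with no overlap (-1.45, SE 0.24, adjusted p = 0.0117).

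PUF60, which helps recognise the end of the intron, was at 6.10, 6.59, 6.72 and 6.76 in the DPF arrays and at 7.53, 7.55, 7.45 and 7.09 in the HG arrays (-0.86, adjusted p = 0.0193). The mRNA stabiliser ELAVL1 (-0.59, adjusted p = 0.0342) and RNPS1 (-0.76, adjusted p = 0.0348) also fell. RALY passed too, but was below 4 on all DPF arrays and at 4.10 to 4.69 in HG, so that its size is not given.

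Within DPF 0 of the 92 were called by limma, against 0% of all genes, with 3 at an unadjusted p under 0.05, against 4.86%. RBM8A, the Y14 subunit of the exon junction complex, was at 4.62 and 4.87 in DPF+ and 3.75 and 3.75 in DPF- (adjusted p = 0.339). It passed the filter mainly through the DPF+ arrays and lay below 4 in DPF-, so that its size is not given. RBM22 was at 6.99 and 6.73 against 6.07 and 6.24 (0.71, adjusted p = 0.510). The groups did not overlap for RBM22. Within HG 0 of the 92 were called, against 0% of all genes, and 0 had an unadjusted p under 0.05, against 0.27%. PUF60 had the smallest p there, with a change of 0.27.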

How the data were processed

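The authors deposited 1 log2 level per probe set and array. Per the submitters' processing notes they used GCRMA, which subtracts background, normalizes arrays to each other and summarises the probes of a set. No version is given. The table holds 38535 probe sets on 8 arrays. The tests left out 96 control probe sets and 8 with a blank value, and kept 12725 with a log2 level of at least 4 on at least 2 arrays. The annotation given with the series named the genes; 3 probe sets that name a splicing gene beside another gene were not used, and all 64 symbols match the RefSeq gene table of the GRCg7b assembly.

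Group means of all 8 arrays were fitted with limma 3.58.1 in R 4.3.3 (lmFit, eBayes with an intensity trend, two-sided), on 4 residual plus 3.68 prior degrees of freedom. P values were adjusted across the 12725 probe sets by Benjamini-Hochberg, with a 5% threshold. Counts over all genes use 7034 genes, each by its brightest probe set. The fit was run on simulated data with a like spread on every array. That run does not cover the unequal spread of the groups here. Genes named are those past the threshold, otherwise up to 5 per direction and contrast with the smallest p, the 5 with the largest replicate difference in DPF+, and in each role the 2 with the highest and the 1 with the lowest mean. Others, such as HNRNPK and those with a second called probe set, were picked with their values in view. The genes, lists and tests were chosen with earlier results of these data known. Marker lists were summed as linear levels and given as log2. The number of arrays limits the precision. Alternatives were other filters, normalizations and variance models, the arrays of a contrast alone, a replicate block, RNA amount (8.8 to 13.3 µg) as a covariate, array weights, the mean of a gene's probe sets, and the omission of each array.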

Additional observations from a re-analysis of the deposited data

Results flagged for a closer look

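In 9 of the 112 sets of 4 arrays examined (56 splicing genes, DPF and HG), 1 array stood apart from the 3 others by a gap that, as a share of the whole range, passed Dixon's 95% critical value. For 4 independent values from 1 normal population, about 1 set in 20 passes. Here each set joins a + and a - group and the genes share arrays, so the count is not weighed against that rate. DPF+ replicate 2 stood apart in SRSF1 (11.82 beside 11.04 for the next array, gap 0.907 of the range), SRSF7L (10.38 beside 10.00, 0.844), HNRNPM (9.64 beside 9.07, 0.838) and PRPF4B (8.35 beside 8.70, 0.833). HG- replicate 2 stood apart in SRSF10 (9.19 beside 8.87, 0.970), SRSF11 (7.37 beside 7.24, 0.929), LSM14A (8.84 beside 9.01, 0.850) and SNRPN (7.96 beside 8.13, 0.850). For SNRPD2 in DPF- replicate 2 the gap was 1.00 of the range, but only 0.03 in log2 level at the filter's edge. The mean of the hybridisation controls was 8.46 in HG- replicate 2 and 8.93 in DPF+ replicate 2, the lowest of the 8 arrays, against 9.18 to 9.78 elsewhere, and its part was not tested.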

How the results depend on the processing

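For DPF against HG the count of 2 splicing genes became 1, RBFOX2, without a filter, with the filter at 6, without the intensity trend, with robust variance, with array weights and with the replicate block (replicate number 1 or 2). It ran from 1 to 14 when arrays were left out and was 2 or 3 in the other settings. For DPF+ against DPF- it was 0, and 0 to 7 with arrays left out. For HG+ against HG- and for the difference between the contrasts it was 0 in every setting run. Over all probe sets, the replicate differences of same-numbered arrays had r = 0.51 between DPF+ and HG+ and 0.12 between DPF- and HG-, but -0.52 between DPF+ and DPF-, -0.43 between DPF- and HG+, -0.26 between DPF+ and HG- and -0.19 between HG+ and HG-. No label ties the numbers and the signs are mixed, so that they are not taken as pairs. With crossed numbers as a block, added after the data were seen, the counts were 0, 0, 0 and 3. Of 782 values of the 40 named changes under alternatives, 13 lost a call, all of them of PRPF6, 9 gained a call, 4 of them of LSM14A for DPF against HG, and 9 of various genes changed sign. With arrays left out the change of SRSF1 in DPF ran from -0.055 to 0.805, that of SRSF6 in DPF from -0.63 to 0.15 (both turned without DPF+ replicate 2) and that of SRSF10 in HG from -0.325 to 0.005 (turned without HG- replicate 2). For the difference between the contrasts LSM1 ran from -0.665 to 0.095 and was 0.44 with the RNA amount, PRPF4B was 0.135 with the mean of all probe sets, and PRPF6 was -0.03 with that mean and -0.0297 with the RNA amount. Over all probe sets 1588 were called for DPF against HG, and from 174 to 4846 over all settings. The cause was not tested.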
